A study of Mus musculus with 8 samples.

Results

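The DNA methyltransferase genes Dnmt1, Dnmt3a and Dnmt3b, their partner Uhrf1 and the dioxygenase genes Tet1, Tet2 and Tet3 were taken by gene symbol from lists of N6-methyladenosine (m6A) sites. Of these 7 genes, 6 had a listed site, among 10609 named genes in all. They held 98 of the 85953 sites listed in any library, and Tet1 and Tet2 carried most of them. The sites had been mapped by GLORI, a chemical method in which unmethylated adenosine is converted and read as G while methylated adenosine is still read as A. The m6A level of a site is therefore the share of A among its A and G reads, a fraction between 0 and 1.

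The series held 8 mouse libraries in 4 groups of 2. TBLC grown in MYCP medium received an siRNA against Virma (siVirma) or a control siRNA (siNC). Virma is a scaffold subunit of the nuclear complex that writes m6A. EPSC carried a guide against Gata6 (sgGata6) or a control guide (sgCtrl), and both EPSC groups shared the dCas13b-FTO system, in which a catalytically dead RNA-binding Cas13b brings the m6A eraser FTO to a guided transcript. The labels do not say whether replicates were separate cultures, so the p-values reflect the spread between libraries, and that spread may be technical only.

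In mammalian cells, Dnmt3a and Dnmt3b place new methyl groups on cytosine in DNA. Dnmt1 copies the pattern after replication, and Uhrf1 brings it to hemimethylated DNA. Tet proteins oxidise 5-methylcytosine and so start its removal. Tet1 and Tet2 are the Tet genes best known in mouse embryonic stem cells, while Tet3 is best known in the oocyte and zygote.

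The siVirma lists held 3423268 and 2655963 A and G reads over listed sites, and the siNC lists held 4764955 and 4367999, totals that move with the number of sites listed. In siVirma, the deposited gene coverage of Virma itself was 24.0 and 22.8, against 40.3 and 38.2 in siNC (log2 change relative to the library medians -0.91, SE 0.06, limma adjusted p = 4.03e-04). Of 13 totipotent and 2-cell markers, 11 had a listed site in TBLC, and Tcstv1 and Sp110 had none. All 8 pluripotency markers and all 12 fibroblast markers had one, as did 7 of 9 primitive endoderm markers. A list holds only sites with at least 15 reads, at least 5 A reads and a level of at least 0.1. A site missing from a list is therefore not a site with a level of 0.

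Fewer sites of these genes were listed after Virma depletion. Together they had 44 and 39 listed sites in siVirma, against 83 and 81 in siNC. The means were 41.5 ± 3.54 in siVirma and 82.0 ± 1.41 in siNC (SD, n = 2 each), so siVirma had 50.6% of the siNC number. Over all genes siVirma had 37910.5 ± 4485 sites and siNC 64153.5 ± 3106, or 59.1%. The groups did not overlap, but an exact two-sided permutation test over 2 against 2 libraries gave p = 0.33, the smallest it allows. Gene coverage, the deposited read coverage of a gene, had a median over genes of 46.4 and 40.1 in siVirma and 39.3 and 37.6 in siNC. Tet2 coverage was lower in siVirma, at 23.7 and 21.9, against 29.9 and 28.4 in siNC. That of Dnmt3a was also lower, at 24.5 and 23.6, against 25.8 and 25.5 in siNC. Coverage of Tet1, Dnmt3b and Uhrf1, as deposited, was higher in siVirma, as were the medians. Relative to the library medians Tet1 was not higher (log2 change -0.04). The part of depth in the site counts was not tested. With a minimum of 20 reads a site, the siVirma mean was lower by 37.5 sites in place of 40.5.

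Among the methyltransferases, Dnmt1 had no listed site in either siVirma library and 1 site in each siNC library. Dnmt3a, one of the de novo enzymes, had 3 and 1 sites in siVirma and 4 and 3 in siNC. Dnmt3b, the other, had 1 and 2 sites in siVirma and 2 and 3 in siNC. For both de novo enzymes the higher siVirma count equalled the lower siNC count. Uhrf1 had a single site in each siVirma library, against 6 and 4 in siNC.

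Tet1 had 26 and 28 sites in siVirma and 44 and 46 in siNC. Few genes had more: 66 and 39 genes in the siVirma libraries, and 27 and 19 in the siNC libraries, had at least as many sites as Tet1 there, itself included. Tet2 had 13 and 7 sites in siVirma and 26 and 24 in siNC. By the means, Tet1 had 60.0% of its siNC number in siVirma, and Tet2 had 40.0%. Tet3 had no listed site in any of the 4 TBLC libraries, and so has no level or coverage here.

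**Figure D1:**
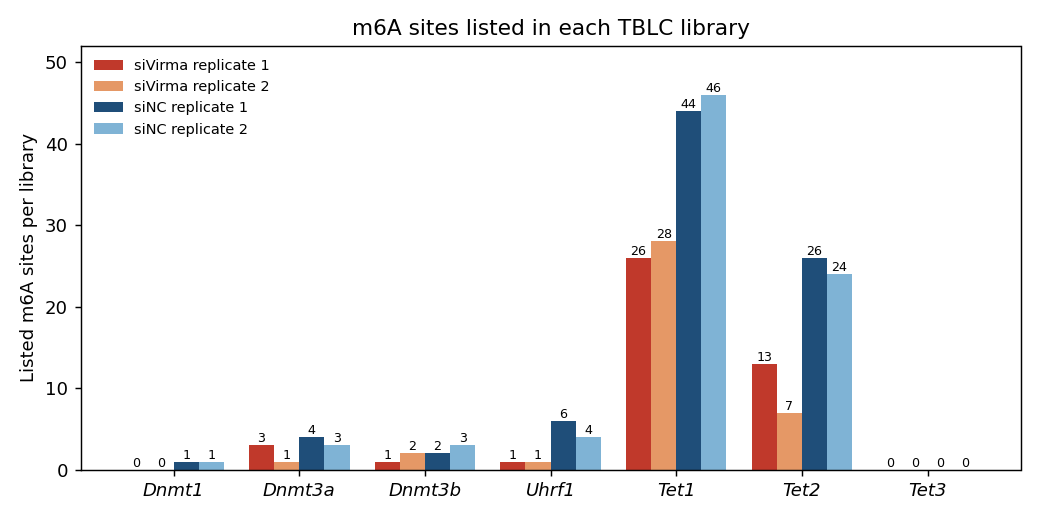
Number of listed m6A sites of each gene (y axis, sites per library) in the 2 siVirma and 2 siNC TBLC libraries, with 1 bar per library and its count above it. Tet1 and Tet2 bars are lower in both siVirma libraries than in both siNC libraries, and Tet3 is at 0 throughout.

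Whether a site stayed listed followed its level in siNC. Of 71 sites of these genes listed in both siNC libraries, 30 (42.3%) were listed in both siVirma libraries, 17 in 1 of them and 24 (33.8%) in neither. Over all 49554 such sites the shares were 47.1% in both and 33.1% in neither. At a mean siNC level of 0.1 to 0.3, 2 of 28 sites of these genes (7.14%) stayed in both lists, against 7.57% of all sites. At 0.3 to 0.6 it was 11 of 21 (52.4%, against 49.5% of all sites). At 0.6 to 1 it was 17 of 22 (77.3%, against 87.9%).

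Gene by gene, Tet1 kept 21 of 40 sites in both siVirma lists, and 10 were in neither. Tet2 kept 6 of 21, and 9 were in neither. For Tet2 these included strongly methylated sites with few reads. The site at 133172795 on chromosome 3 (mm39) had 19 of 19 and 22 of 24 reads as A in siNC, and the site at 133172624 had 11 of 18 and 13 of 16, and neither was in a siVirma list. Uhrf1 kept 1 of 4, Dnmt3a 1 of 3, Dnmt3b 1 of 2 and Dnmt1 0 of 1. No site of these genes was listed in both siVirma libraries and in neither siNC library.

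At the sites that could be tested, the level was lower in siVirma. In all, 28 sites of 5 genes were listed in the 4 TBLC libraries with at least 20 reads in each. These were 20 in Tet1, 5 in Tet2 and 1 each in Dnmt3a, Dnmt3b and Uhrf1. By edgeR's quasi-likelihood test on A and G reads, 25 of the 28 were lower in siVirma at an adjusted p under 0.05 and 0 were higher. Of all 20414 sites tested, 91.6% were called lower, so the share among these sites is near the background. In 28 of 28 sites both siVirma levels lay below both siNC levels, which held for 94.8% of all sites tested. It did not hold at every site that stayed listed. The Tet1 site at 62714559, too shallow for the test, was at 0.212 and 0.280 in siVirma and 0.444 and 0.208 in siNC. The Tet1 site at 62648862, listed in siVirma replicate 2 only, was at 0.123 there and at 0.143 and 0.123 in siNC. Since a site had to remain above the list's minimums in siVirma to be tested, sites that lost most of their m6A are missing from these counts.

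The 5 genes fell to different degrees. The share of the siNC level kept in siVirma, from reads summed over a gene's tested sites, was 32.0% in Dnmt3a, 37.3% in Dnmt3b, 46.8% in Uhrf1, 53.4% in Tet1 and 77.9% in Tet2. The median over all 5642 genes tested was 44.9%, with quartiles of 38.3% and 53.5%. All 5 were called lower, as were 93.8% of all genes, while 0.177% of all genes (10) were called higher. A summed level also moves with the share of reads that each site gives. Differences in the kept share between these genes were not tested.

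Dnmt1 could not be tested. Its only site, at 20818821 on chromosome 9 (mm39, minus strand), had 36 of 123 and 21 of 98 reads as A in siNC, levels of 0.293 and 0.214. It was not in either siVirma list. The gene's coverage is given only where it has a listed site, and was 88.3 and 87.0 in siNC.

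The Dnmt3a sites lay between 3957669 and 3958770 on chromosome 12 (plus strand). The tested one, at 3958035, had levels of 0.156 and 0.139 in siVirma, against 0.467 and 0.455 in siNC. Both siVirma levels were below both siNC levels, and the fall in log2 odds of A to G reads was -2.27 (SE 0.52, edgeR adjusted p = 1.02e-04). It rested on 30 to 45 reads a library. In siVirma 7 and 5 of these were A reads, at or near the list minimum of 5. The site at 3957751 was at 0.647 in siVirma replicate 1, was not listed in siVirma replicate 2, and was at 0.920 and 0.647 in siNC.

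The Dnmt3b sites lay between 153528300 and 153529541 on chromosome 2 (plus strand). The tested one, at 153528300, had levels of 0.33 and 0.177 in siVirma and 0.661 and 0.709 in siNC. The siVirma replicates differed by more than the siNC replicates, but the groups did not overlap (log2 odds -2.64, SE 0.39, edgeR adjusted p = 6.02e-08). Its neighbour at 153528331 was at 0.196 in siVirma replicate 2 only, and at 0.243 and 0.361 in siNC.

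Uhrf1 showed the largest fall in level among these 5 genes. Its sites lay between 56616443 and 56630389 on chromosome 17 (plus strand), and 1 of them, at 56629656, was read as A in nearly all reads in siNC. That site had 148 of 342 and 140 of 306 reads as A in siVirma, against 290 of 305 and 229 of 241 in siNC. The levels were thus 0.433 and 0.458 in siVirma and 0.951 and 0.95 in siNC, and the groups lay far apart relative to either pair of replicates. The log2 odds fell by 4.57 (SE 0.23, edgeR adjusted p = 4.60e-22). By the fall in odds over summed sites, Uhrf1 ranked 45 of 5642 genes, and by the kept share, highest first, it ranked 2447.

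The other Uhrf1 sites were weakly methylated. The site at 56616443 was at 0.154 and 0.128 in siNC, that at 56629970 at 0.144 and 0.103, and that at 56630122 at 0.200 and 0.225, each from at least 146 reads. None of them was in a siVirma list, although Uhrf1 had the highest coverage in every library among these genes with a value.

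**Figure D2:**
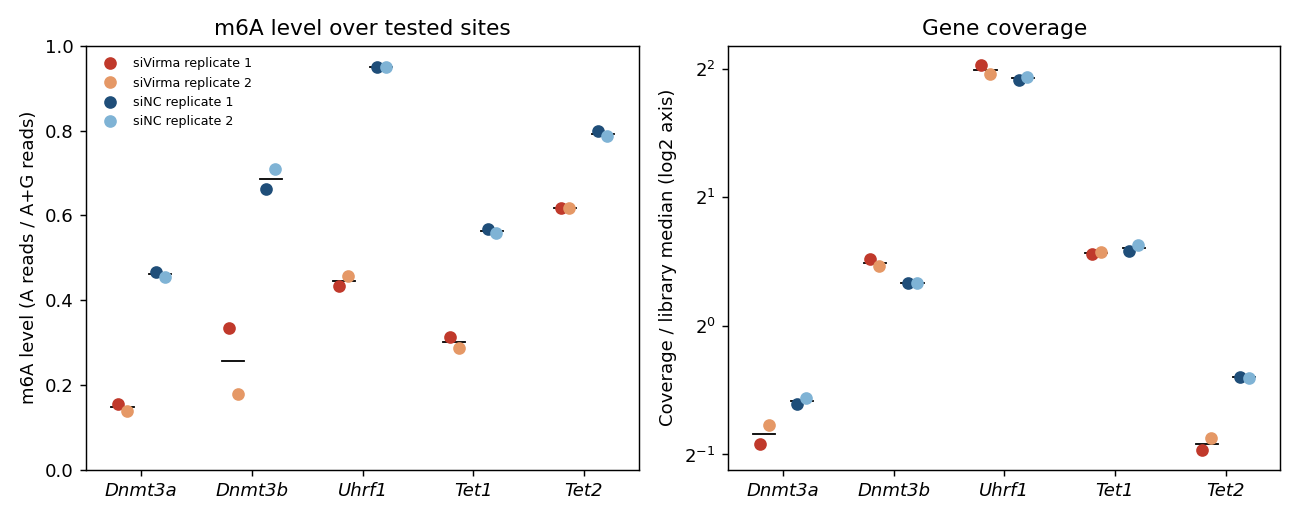
Left, m6A level over the tested sites of each gene (A reads divided by A and G reads), and right, gene coverage divided by the library's median (log2 axis). Points are the 2 siVirma and 2 siNC libraries and bars are group means. In each gene the siVirma levels lie below the siNC levels. In coverage the siVirma points lie below the siNC points in Dnmt3a, Tet2 and, by a small margin, Tet1, which did not pass the test.

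Tet1 carried the most sites, 52 in any list, over 75127 nt between 62640392 and 62715519 on chromosome 10 (minus strand). Summed over its 20 tested sites, the level was 0.313 and 0.288 in siVirma, against 0.568 and 0.558 in siNC. The groups did not overlap (log2 odds -1.58, SE 0.09, edgeR adjusted p = 2.89e-20). Of the 20 sites, 17 were called lower. The kept share had a median of 50.4% and ran from 31.2% to 75.7%.

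Among the tested Tet1 sites, the one with the highest siNC level was at 62714427, with 0.508 and 0.568 in siVirma and 0.867 and 0.867 in siNC (edgeR adjusted p = 3.27e-05). The largest fall was at 62714596, with 0.438 and 0.314 in siVirma and 0.786 and 0.792 in siNC (adjusted p = 1.72e-06). The smallest difference was at 62674393, with 0.109 and 0.154 in siVirma and 0.273 and 0.206 in siNC, where the test was not passed (adjusted p = 0.0868). Neither was it passed at 62714420 (0.0562) or 62715513 (0.0866), although at all 3 sites the siVirma levels were below the siNC levels. Under limma on log2 odds 62674393 (adjusted p = 0.0368) and 62714420 (0.0403) passed, but under DESeq2 they did not (0.226 and 0.215). The call at 62715151 (0.0405) was lost without siNC replicate 1 (0.0613), siNC replicate 2 (0.147) or siVirma replicate 2 (0.224), and under DESeq2 (0.185). The call at 62675628 (0.00196) was lost without siNC replicate 1 (0.0666) or siVirma replicate 1 (0.0745).

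The Tet1 sites lay in 3 stretches more than 5000 nt apart. The most 5′ stretch, 62714222 to 62715519 (1298 nt), held 19 sites. Its 6 tested sites together were at 0.383 and 0.345 in siVirma and 0.627 and 0.620 in siNC, 58.4% kept. The middle stretch, 62674026 to 62676108 (2083 nt), held 14 sites, and its 6 tested sites were at 0.356 and 0.336 in siVirma and 0.627 and 0.553 in siNC, 58.7% kept. The most 3′ stretch, 62640392 to 62649122 (8731 nt), held 19 sites, and its 8 tested sites were at 0.252 and 0.242 in siVirma and 0.511 and 0.530 in siNC, 47.4% kept. Every stretch was thus lower in siVirma, without overlap. The difference between the stretches was not tested, and no mm39 annotation was used here, so exons and UTRs are not stated.

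The Tet sites lay close together. In Tet1 40 of 52 sites (76.9%) and in Tet2 21 of 31 (67.7%) had another listed site of any gene within 50 nt, against 51.1% of all sites. So did 2 of 3 Dnmt3b sites (66.7%), but none of 6 Uhrf1 sites, none of 5 Dnmt3a sites and not the 1 Dnmt1 site. A near neighbour is likelier where a gene holds many sites, and the Tet genes were not compared with genes of like site number. Of 3 pairs within 10 nt with both sites listed in both siNC libraries, 2 differed by more than 0.3 in level. The Tet1 sites at 62648964 and 62648970, 6 nt apart, had mean siNC levels of 0.187 and 0.673. Those at 62714420 and 62714427, 7 nt apart, had 0.521 and 0.867. The Tet2 sites at 133172928 and 133172937, 9 nt apart, had 0.182 and 0.301.

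**Figure D3:**
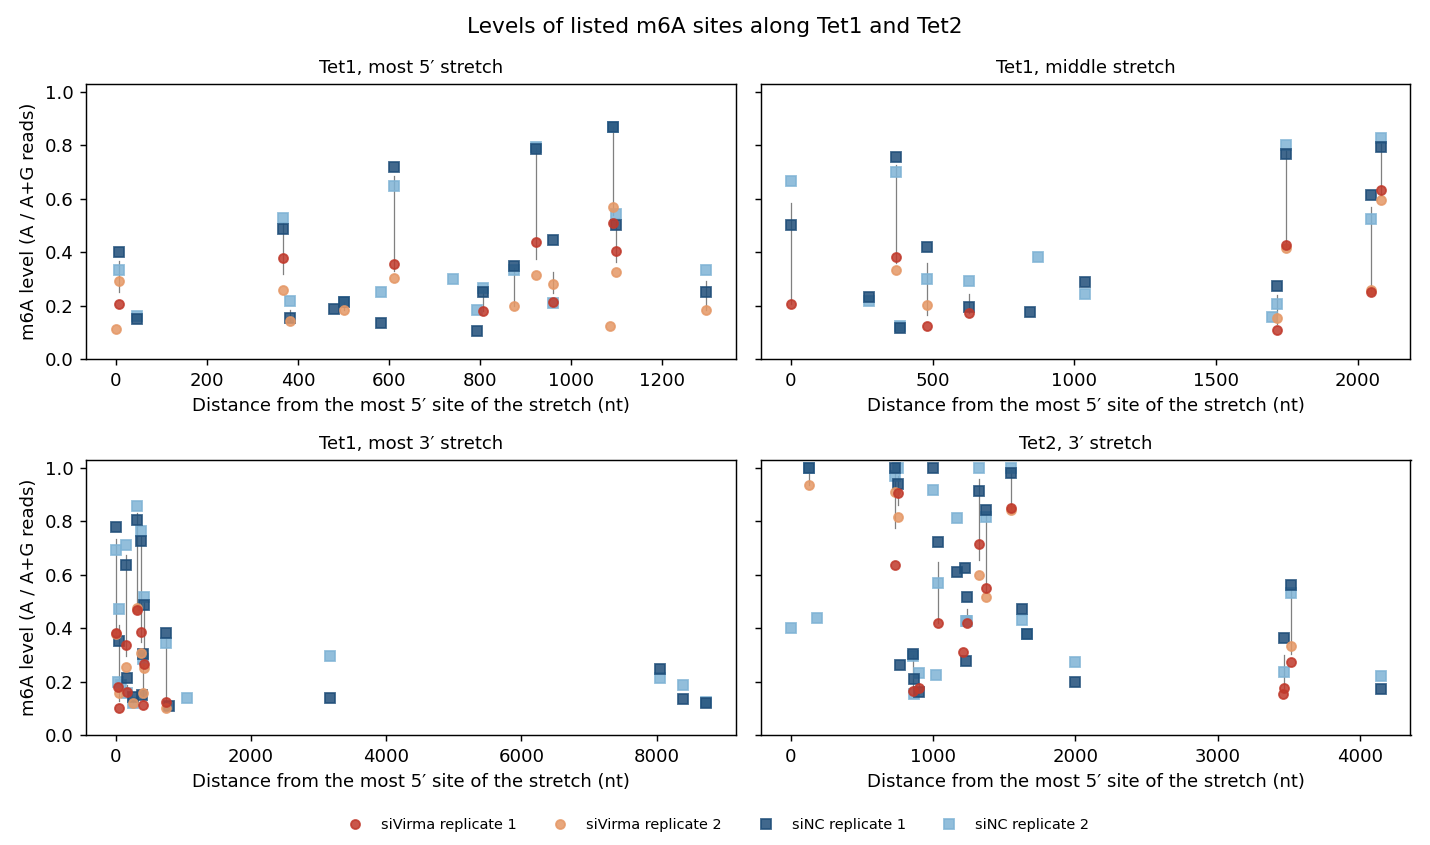
m6A level of each listed site (y axis, A reads divided by A and G reads) against distance in nt from the most 5′ site of its stretch, for the 3 Tet1 stretches and the 3′ Tet2 stretch. Circles are siVirma and squares siNC libraries, drawn only where the site was listed, and grey lines join group means; the siVirma circles lie below the siNC squares at the tested sites.

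Tet2 kept more of its m6A than most genes at the sites that could be tested. Its 31 sites lay on chromosome 3 (minus strand), 27 of them between 133169647 and 133173795 (4149 nt) and 4 between 133191459 and 133193791 (2333 nt). The 5′ group of 4 had 4 and 1 sites in siNC and none in siVirma. Over the 5 tested sites, all in the 3′ stretch, the level was 0.616 and 0.619 in siVirma, against 0.798 and 0.787 in siNC. The groups did not overlap (log2 odds -1.25, SE 0.23, edgeR adjusted p = 3.28e-06). By the kept share, highest first, Tet2 ranked 310 of 5642 genes and Tet1 1422. The summed Tet2 level also moved with the mix of reads. Its tested site of lowest level, 133170279, gave 40 of 159 and 27 of 118 summed reads in siVirma. In siNC it gave 89 of 263 and 92 of 239. This raises the summed siVirma level relative to siNC, so the kept share of 77.9% is best read beside those of the single sites.

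All 5 Tet2 sites were called lower, with a median kept share of 68.7%. The site with the highest siNC level, at 133173061, was at 0.639 and 0.909 in siVirma and 1.0 and 0.971 in siNC (edgeR adjusted p = 9.01e-05). Its siVirma replicates differed by 0.270 and the call was lost without siVirma replicate 1 (0.141). The largest fall was at 133172469, with 0.714 and 0.6 in siVirma and 0.914 and 1.0 in siNC (adjusted p = 2.13e-04). The smallest was at 133173044, with 0.905 and 0.818 in siVirma and 0.939 and 1.0 in siNC (adjusted p = 0.0377).

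These Tet2 calls rested on few reads, 20 to 92 a site and library. The call at 133173044 was lost without siNC replicate 2 (0.264), siVirma replicate 1 (0.0759) or siVirma replicate 2 (0.249) and under DESeq2 (0.0880), and that at 133170279 without siVirma replicate 1 (0.0579, against 7.62e-04 with all libraries). In a nearly fully methylated site just short of the read minimum, 133172247, the levels were 0.852 and 0.842 in siVirma and 0.982 and 1.0 in siNC. Over the whole series the kept share was also higher at sites methylated this strongly than at those of middling level, so the 28 sites were set beside sites of like siNC level.

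Beside sites of like level, most Tet sites and none of the other 3 sites kept more than the median. Over all tested sites with a siNC level of 0.9 to 1, the median kept share was 64.6%, with quartiles of 54.0% and 77.2% (3188 sites). The 3 Tet2 sites there kept 68.7%, 78.5% and 88.9%, while the Uhrf1 site kept 46.8%, below the lower quartile. In all, 22 of the 28 sites were above the median of their level range: 17 of 20 in Tet1 and 5 of 5 in Tet2. The Dnmt3a site (32.0%, against a median of 39.4%) and the Dnmt3b site (37.3%, against 40.3%) were below it. Sites of a gene share their transcripts and libraries, so these counts are a description. The level ranges do not match read depth. In siVirma the Uhrf1 site had 342 and 306 reads, the Dnmt3a site 45 and 36, and the tested Tet2 sites 20 to 42. At few reads, the minimum of 5 A reads leaves out sites that fell far. The part of this in the contrast between the genes was not tested.

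**Figure D4:**
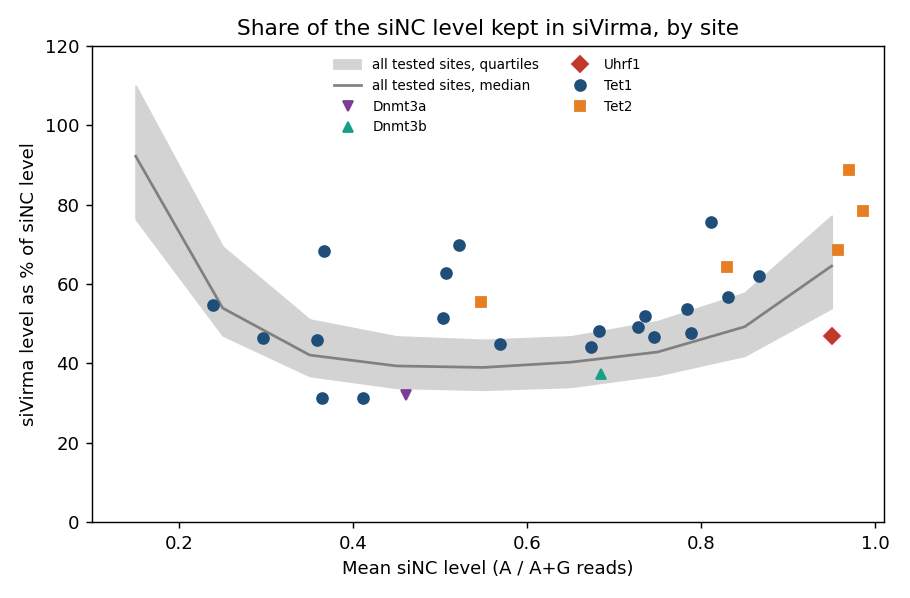
Share of the mean siNC level kept in siVirma (y axis, %) against the mean siNC level (x axis, fraction) for the 28 tested sites, 1 point per site. The grey line and band are the median and quartiles of all tested sites by level range; 17 of 20 Tet1 and 5 of 5 Tet2 sites lie above the median, and the Uhrf1 site at 46.8% lies below the band.

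In gene coverage, Tet2 and Dnmt3a were lower in siVirma and the other 3 genes with a value did not pass the test. Coverage has a value only where a site is listed, and in bulk samples fewer cells of a type and less RNA per cell cannot be told apart. Tet2 was at 23.7 and 21.9 in siVirma, against 29.9 and 28.4 in siNC. Relative to the library medians, which differed by 0.17 on the log2 scale, Tet2 fell to 0.697 of siNC (log2 -0.52, SE 0.05, limma adjusted p = 0.00210), rank 33 from the lowest of 6787 genes. Dnmt3a was at 24.5 and 23.6 in siVirma and 25.8 and 25.5 in siNC, 0.834 of siNC after the same centring (log2 -0.26, SE 0.06, adjusted p = 0.0271).

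Thus 2 of 5 genes were called lower in coverage and 0 higher, while 12.4% of all genes were called lower and 9.15% higher. The Tet2 call was lost without siVirma replicate 1 (log2 -0.47, adjusted p = 0.0568) and without centring (-0.35, 0.0507). The Dnmt3a call was lost without siVirma replicate 1 (-0.18, 0.112), without siNC replicate 2 (-0.25, 0.0818) and without centring (-0.10, 0.694). Over all genes, 621 were called higher and 841 lower, which became 642 and 30 without centring, and 15 and 10 without siVirma replicate 1.

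Uhrf1 (189 and 156 in siVirma, 148 and 144 in siNC) did not pass the test (log2 0.07, SE 0.05, limma adjusted p = 0.355). Nor did Tet1, at 68.2 and 59.8 in siVirma and 58.8 and 58.1 in siNC (log2 -0.04, SE 0.05, adjusted p = 0.593; 0.13 without centring). Dnmt3b was at 66.6 and 55.3 in siVirma and 49.6 and 47.4 in siNC (log2 0.16, SE 0.05, adjusted p = 0.0605). The libraries also differed in marker coverage. Summed over the 8 of 12 fibroblast markers with a value in all libraries it was 610 and 497 in siVirma and 358 and 335 in siNC, and 5 of the 8 were called higher, against 9.15% of all genes (2 without siVirma replicate 1 and 6 without centring). Among the totipotent and 2-cell markers 4 of 8 were called lower, among pluripotency markers 2 of 7 and among primitive endoderm markers 2 of 5, against 12.4% of all genes. Without centring these counts were 1, 0 and 0, and without siVirma replicate 1 they were 0 in each. The part of these shifts in the Tet2 and Dnmt3a values was not tested.

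The deposited conversion rate of a gene differed slightly between the groups. Its median over genes was 0.988 and 0.988 in siVirma and 0.983 and 0.983 in siNC. Tet1 had 0.990 and 0.990 in siVirma and 0.986 and 0.986 in siNC. Tet2 had lower rates, 0.977 and 0.977 in siVirma and 0.971 and 0.972 in siNC. The part of the conversion rate in the level changes was not tested.

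Levels of other genes of cytosine methylation were lower in siVirma at about the background share. Of 48 genes in 4 lists, 43 had a listed site and 25 could be tested; the rest have no test. All 25 were called lower and 0 higher, against 93.8% of all genes, with a median kept share of 48.1%. By list these were 5 of 5 maintenance partners (median kept share 37.1%) and 6 of 6 de novo cofactors and recruiters (51.4%). They were also 4 of 4 genes of the methyl-CpG-binding domain (MBD) and Zbtb families (51.3%) and 10 of 10 Tet partners and repair genes (49.2%).

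Among the maintenance partners, Usp7, a deubiquitinase that stabilises DNMT1 and UHRF1, was at 0.140 and 0.164 in siVirma and 0.419 and 0.401 in siNC. Cdca7l was at 0.295 and 0.222 in siVirma and 0.825 and 0.639 in siNC. Ehmt2, an H3K9 methyltransferase, was at 0.181 and 0.177 in siVirma and 0.416 and 0.391 in siNC. In each of these 3 genes the groups did not overlap.

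Among the de novo cofactors and recruiters, Zfp57, a zinc finger protein that protects imprinted methylation, was at 0.371 and 0.370 in siVirma and 0.667 and 0.653 in siNC. Setdb1, an H3K9 methyltransferase, was at 0.331 and 0.349 in siVirma and 0.721 and 0.733 in siNC. Zfp445, which also acts at imprints, was at 0.215 and 0.251 in siVirma and 0.477 and 0.461 in siNC. Again both siVirma levels were below both siNC levels in each.

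Of the MBD and Zbtb family genes, Mbd3, a subunit of the NuRD complex, was at 0.198 and 0.197 in siVirma and 0.548 and 0.585 in siNC. Zbtb33, also known as Kaiso, was at 0.387 and 0.431 in siVirma and 0.621 and 0.763 in siNC. Mbd3 kept 34.9% of its siNC level and Zbtb33 59.1%.

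Of the Tet partners, Ogt, the O-GlcNAc transferase that binds Tet proteins, was at 0.219 and 0.227 in siVirma and 0.568 and 0.585 in siNC. Cxxc5, a CXXC protein, was at 0.541 and 0.557 in siVirma and 0.943 and 0.947 in siNC. Gadd45a, linked to DNA demethylation through repair, was at 0.367 and 0.229 in siVirma and 0.548 and 0.516 in siNC (edgeR adjusted p = 0.00416), a call lost without siVirma replicate 2 (0.129). In coverage, 28 genes of the 4 lists had a value in all libraries, and 8 (against 9.15% of all genes) were called higher and 3 (against 12.4%) lower. Without siVirma replicate 1 both counts were 0, and without centring they were 7 and 0.

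The genes whose 4 library levels came closest to those of Dnmt3a, Tet1, Uhrf1 and Tet2, by the smallest largest difference among genes with at least 100 reads in every library, were as follows. Rrm2 stayed within 0.00669 of Dnmt3a, Ywhag within 0.0162 of Tet1, and Niban2 within 0.0264 of Uhrf1. Cluh stayed within 0.0417 of Tet2. About 3160 genes could have been chosen for each of these, and the likeness is over 4 libraries only.

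In EPSC, the Gata6 guide was not accompanied by a called change at any site of these genes. The deposited EPSC table gives 1 pooled value per group, so it carries no replicate error, and Fisher's exact test on its reads compares the pooled libraries, not the conditions. It held 60 of the sites: 31 in Tet1, 18 in Tet2, 5 each in Dnmt3a and Uhrf1, 1 in Dnmt1 and none in Dnmt3b. Of these, 27 were higher in sgGata6, 31 lower and 2 equal. With at least 20 reads in both groups 31 could be tested, and 16 were higher and 15 lower. None was called at an adjusted p under 0.05, against 0.275% of all 10185 rows, and 4 had an unadjusted p under 0.05, as did 11.8% of all rows.

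The Uhrf1 site at 56629656 had 143 of 170 reads as A in sgGata6, a level of 0.841 (95% Wilson interval 0.779 to 0.888). In sgCtrl it had 95 of 115, or 0.826 (0.747 to 0.885), and Fisher's exact p was 0.747. The intervals cover counting error only. The smallest adjusted p was 0.129, at the Tet1 site 62641067, with 18 of 55 reads as A in sgGata6 and 9 of 85 in sgCtrl. The Dnmt1 site had 5 of 46 reads as A in sgGata6 and 2 of 23 in sgCtrl.

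The other tested sites with an unadjusted p under 0.05 went both ways. The Tet1 site at 62714643 had 9 of 25 reads as A in sgGata6 and 2 of 30 in sgCtrl. The Tet1 site at 62714726 had 14 of 36 in sgGata6 and 4 of 36 in sgCtrl. The Tet2 site at 133172135 had 2 of 36 in sgGata6 and 8 of 33 in sgCtrl.

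Summed over all its matched rows, Tet1 was at 0.367 in sgGata6 and 0.348 in sgCtrl, and Tet2 at 0.408 in sgGata6 and 0.425 in sgCtrl. Uhrf1 was at 0.339 in sgGata6 and 0.312 in sgCtrl, and Dnmt3a at 0.411 in sgGata6 and 0.383 in sgCtrl. The Wilson intervals of the 2 groups overlapped in each of these 4 genes.

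**Figure D5:**
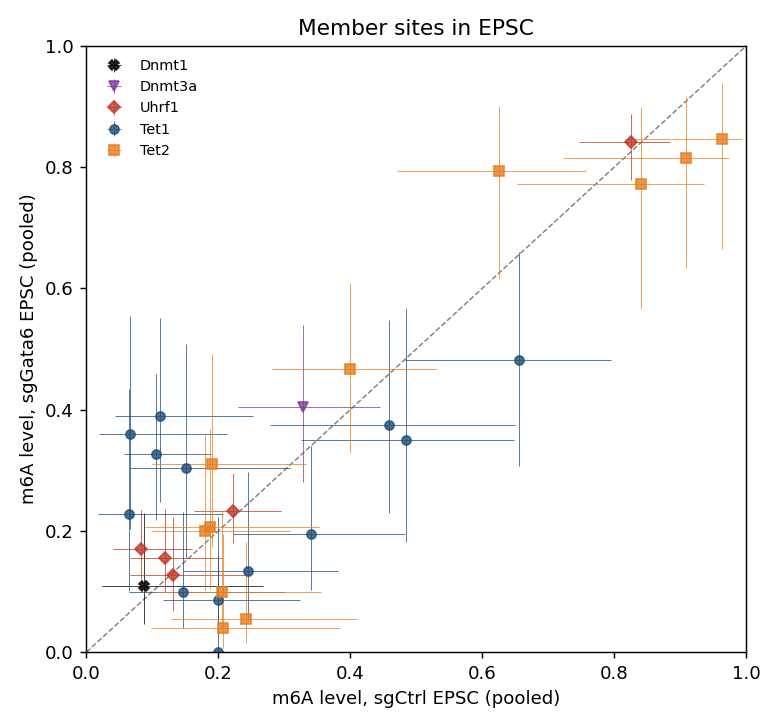
m6A level in sgGata6 (y axis) against sgCtrl (x axis), as fractions of pooled reads, for the 31 sites with at least 20 reads in both EPSC groups, 1 point per site with 95% Wilson intervals. The dashed line marks equal levels; 16 sites lie above it and 15 below.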

How the data were processed

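GLORI libraries were made from mRNA, per the labels' protocols, and the build was mm39, per the submitters' processing notes, with aligner and site caller not given in the sources used here. Per the file headers, each deposited TBLC list gives counts of A+G and A reads and a level as a fraction per site, the authors' p-value and adjusted p-value (used only to describe the lists). They also give each gene a conversion rate, a fraction, and a coverage signal, both understood from their column names only. EPSC values were deposited as pooled counts of A reads and an A+G coverage signal in whole reads, 1 column per group (2 columns of total coverage were not used), so the planned edgeR test was replaced by Fisher's exact test.

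The test of level changes used edgeR 4.0.16 and R 4.3.3 (quasi-likelihood test on A and G counts, a term per library), over sites listed in all 4 TBLC libraries with at least 20 reads in each, and over genes with those reads summed. The SE is the log2 change divided by the square root of F. Coverage was tested with limma 3.58.1 on log2 values centred on the library median. P-values were adjusted over all sites, genes or rows tested (Benjamini-Hochberg, at 0.05), and the scripts were tested on simulated data. Alternatives were DESeq2 1.42.0, limma on log2 odds with 0.5 added to reads, other read minimums, no centring, the replicate block and leaving out each library. Python 3.11.15, pandas 2.3.3, numpy 2.4.6, scipy 1.17.1 and matplotlib 3.10.9 made the summaries and plots. EPSC rows were matched to TBLC sites by chromosome, position and strand. Wilson intervals take in counting error alone, and reads may repeat a molecule.

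The members, gene lists and tests were chosen with earlier results of these data known. Named sites are, for each gene, the tested ones with the highest siNC level and the largest and smallest fall, and up to 3 genes per list by the lowest p and the largest and smallest fall. Other sites were named after their values were seen. One item that these rules took is not reported here. All 7 symbols matched the name tables used here. No sequence is shown, since no mm39 genome was used here.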

Additional observations from a re-analysis of the deposited data

How the results depend on the processing

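With a minimum of 50 reads, the sites called lower fell to 8504 of all sites and 7 of these genes' sites, and the genes to 3108 and 3 (Dnmt3b, Uhrf1 and Tet1); fewer sites and genes are tested under it. Under DESeq2, limma on log2 odds, the replicate block and the minimum of 10 reads, which equals none since lists start at 15, these 4 counts moved by less than 1.5 times. Leaving out 1 library gave 18456 to 20291 sites, 21 to 24 of these genes' sites, 5331 to 5667 genes and all 5 of these genes. For the single genes and sites, 165 of 176 level results without 1 library and 190 of 194 under other settings kept direction and call. The coverage counts were less stable. Genes called lower numbered 30 without centring, 1306 with the replicate block and 10 to 785 without 1 library, and genes called higher 15 to 580. Of these genes 0 were lower without centring, and 0 to 2 without 1 library. Tet1 coverage turned to a log2 change of 0.13 without centring. Replicate numbers are shared by both groups, but deviations of same-numbered libraries correlated at 0.00844 over sites and 0.138 over gene coverage, and with 2 pairs the libraries share only a number. With the replicate block, Dnmt3b coverage passed the test (adjusted p = 0.0431), and no other call for these genes changed. Tet2 levels are limited by depth, at 20 to 92 reads a site.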

Other observations

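The control groups of both cell types can be set side by side at 40 sites of these genes with at least 20 reads in sgCtrl and in both siNC libraries. There was no test, since cell type, the dCas13b-FTO system of the EPSC and the series of libraries cannot be told apart. The median level was 0.272 in sgCtrl EPSC and 0.365 in siNC TBLC. The sgCtrl level was below both siNC levels at 29 of the 40 (72.5%), against 59.9% of all 7983 such sites, whose medians were 0.320 in sgCtrl and 0.373 in siNC. In Tet2 it was below both at 10 of 12 sites and in Tet1 at 15 of 22. These sites were listed in both siNC libraries, while the rule by which EPSC rows were kept is not given here. The sgCtrl level could be under the list minimums, as at the Dnmt1 site, with 2 of 23 reads as A. A Tet1 site too shallow for the test, at 62645949, had 8 of 16 reads as A in sgGata6 and 1 of 21 in sgCtrl (Fisher's exact p = 0.00226, unadjusted).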
